A study of Homo sapiens with 6 samples.

Results

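The matrix metalloproteinases (MMPs), the ADAM and ADAMTS proteases and the tissue inhibitors of metalloproteinases (TIMPs) were examined in PC3 cells, a line established from a skeletal metastasis of a human prostate carcinoma. Protein-coding genes of the count table whose symbol is MMP, ADAM, ADAMTS or TIMP followed by a number were taken, which gave 65 genes of 60545 rows (19932 of them protein coding). The 65 are 22 MMPs, 20 ADAMs, 19 ADAMTS genes and 4 TIMPs. RNA sequencing libraries came from 3 samples treated with RSM3, which the labels call a peptide, and 3 Control samples. Both groups grew in RPMI-1640 with fetal bovine serum, and the sources give no dose, no duration and no name for what Control cells received. Whether replicates were separate cultures is not stated, so p-values measure the spread between these samples alone, which may be technical.

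MMPs are zinc-dependent endopeptidases that cut collagens, laminins and other matrix proteins and are made as inactive precursors. ADAMs are membrane-anchored relatives, several of which release the outer part of growth factors, cytokine receptors and adhesion molecules from the cell surface, a step called shedding. ADAMTS enzymes are secreted and carry thrombospondin repeats that bind matrix, and TIMPs block the active site of MMPs and of some ADAMs. In carcinomas these enzymes are known for invasion through basement membrane and, in bone metastases, for turnover of bone matrix. Transcript levels say nothing of enzyme activity, which depends on removal of the prodomain and on inhibitors, and activity was not measured here.

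Library totals ran from 14091359 to 16036658 counts in RSM3 and from 16637873 to 18594251 in Control, and the 65 genes took 0.209% to 0.224% of each. The libraries had the keratins of an epithelial line, with KRT8 at 330 CPM (counts scaled to a common library total) in RSM3 and 279 CPM in Control. RSM3 replicate 1 held the highest KRT8 value (418 CPM, against 284 and 287 CPM in RSM3 replicates 2 and 3). KRT18 (186 CPM in RSM3 and 202 CPM in Control), KRT19 (601 and 720 CPM) and CDH1 (5.23 and 5.9 CPM) went the other way. EPCAM had 10.3 and 8.96 CPM, and none of these markers was called. Epithelial markers summed to 1030 to 1330 CPM in RSM3 and 1140 to 1300 CPM in Control. Leukocyte markers summed to 0.686 to 1.13 CPM in RSM3 and 1.05 to 2.39 CPM in Control, and CD3E was at 0. Of 7 fibroblast markers, which summed to 74.8 to 102 CPM in RSM3 and 98.4 to 120 CPM in Control, DCN was at 0 and COL1A2 had 17 counts in all 6 libraries together. Of 4 endothelial markers, which summed to 144 to 184 CPM in RSM3 and 219 to 240 CPM in Control, CDH5 and VWF had 4 and 3 counts in all. COL1A1 (73.5 CPM in RSM3 and 88.3 CPM in Control, not called), PDGFRA (12.4 and 18.1 CPM, lower in RSM3) and KDR (143 and 208 CPM, lower in RSM3) made up most of these gaps. The fibroblast marker COL3A1 (2.47 and 4.42 CPM) and the endothelial marker PECAM1 (20.4 and 24.2 CPM) also lay below Control in every RSM3 library. Neither was called. The remaining fibroblast markers, LUM and PDGFRB, had 25 and 30 counts in all. The part of other cell types in the results was not tested. In bulk samples fewer cells of a kind and less RNA per cell cannot be told apart.

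Some libraries stood apart. RSM3 replicate 1 followed the base composition of transcripts: the Spearman correlation across tested genes between its log2 deviation from the 6-library mean and GC content was 0.418, against -0.321 and -0.289 in RSM3 replicates 2 and 3 and -0.205 to 0.158 in Control (genes are not independent replicates). Among the 36 tested genes of these families the same correlation was 0.227 in RSM3 replicate 1, -0.254 and -0.398 in RSM3 replicates 2 and 3, and -0.176 to 0.355 in Control. Control replicates 1 and 2 held a few transcripts that the other 4 libraries nearly lacked, given where they touch a gene below. Results are therefore given with and without single libraries.

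Of the 65 genes, 36 had enough counts to be tested (the default minimum count of 10 in edgeR's filter), 19 had a few counts and were left out, and 10 had no count in any library. Levels are compared between genes as CPM per kilobase of exonic length (CPM per kb), and 23 genes averaged at least 1 CPM per kb. TIMP1, a secreted inhibitor of most MMPs, was the most abundant at 114 ± 16.4 CPM per kb in RSM3 and 107 ± 2.15 in Control (SD, n = 3 each), above 98.5% of all tested genes. TIMP2, which also helps the cell surface protease MMP14 activate pro-MMP2, followed at 74.4 ± 11.1 and 66.1 ± 0.593 CPM per kb. MMP14 itself stood at 67.4 ± 4.92 in RSM3 and 64.7 ± 1.5 in Control. Within libraries TIMP2 lay above MMP14 in all but Control replicate 2 (65.4 and 65.7 CPM per kb). The gap was widest in RSM3 replicate 1 (87.3 and 73 CPM per kb). ADAM15 (56.1 ± 4.62 and 53.8 ± 2.14 CPM per kb) came next, and a gap separated it from MMP1, ADAM9 and ADAM19, whose levels were 22.6 to 26.0 CPM per kb in each group and overlapped. Each family was led by few genes: MMP14 and MMP1 made up 60.0% and 22.4% of the summed MMP level per kb, TIMP1 and TIMP2 60.9% and 38.7% of the TIMPs, and ADAMTS1 64.6% of the ADAMTS genes. ADAM15, ADAM9 and ADAM19 made up 41.9%, 18.5% and 17.8% of the ADAMs. Ranks and shares depend on the length used, which counts every base in any annotated exon and can exceed the transcript expressed. That length is 16168 bases for ADAM10 and 10750 for ADAM17, against 6913 for ADAM9. ADAM10 and ADAM17 made up 4.03% and 4.54% of the ADAMs, with 87.1 and 64.9 CPM in RSM3 against 180 CPM for ADAM9.

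**Figure D1:**
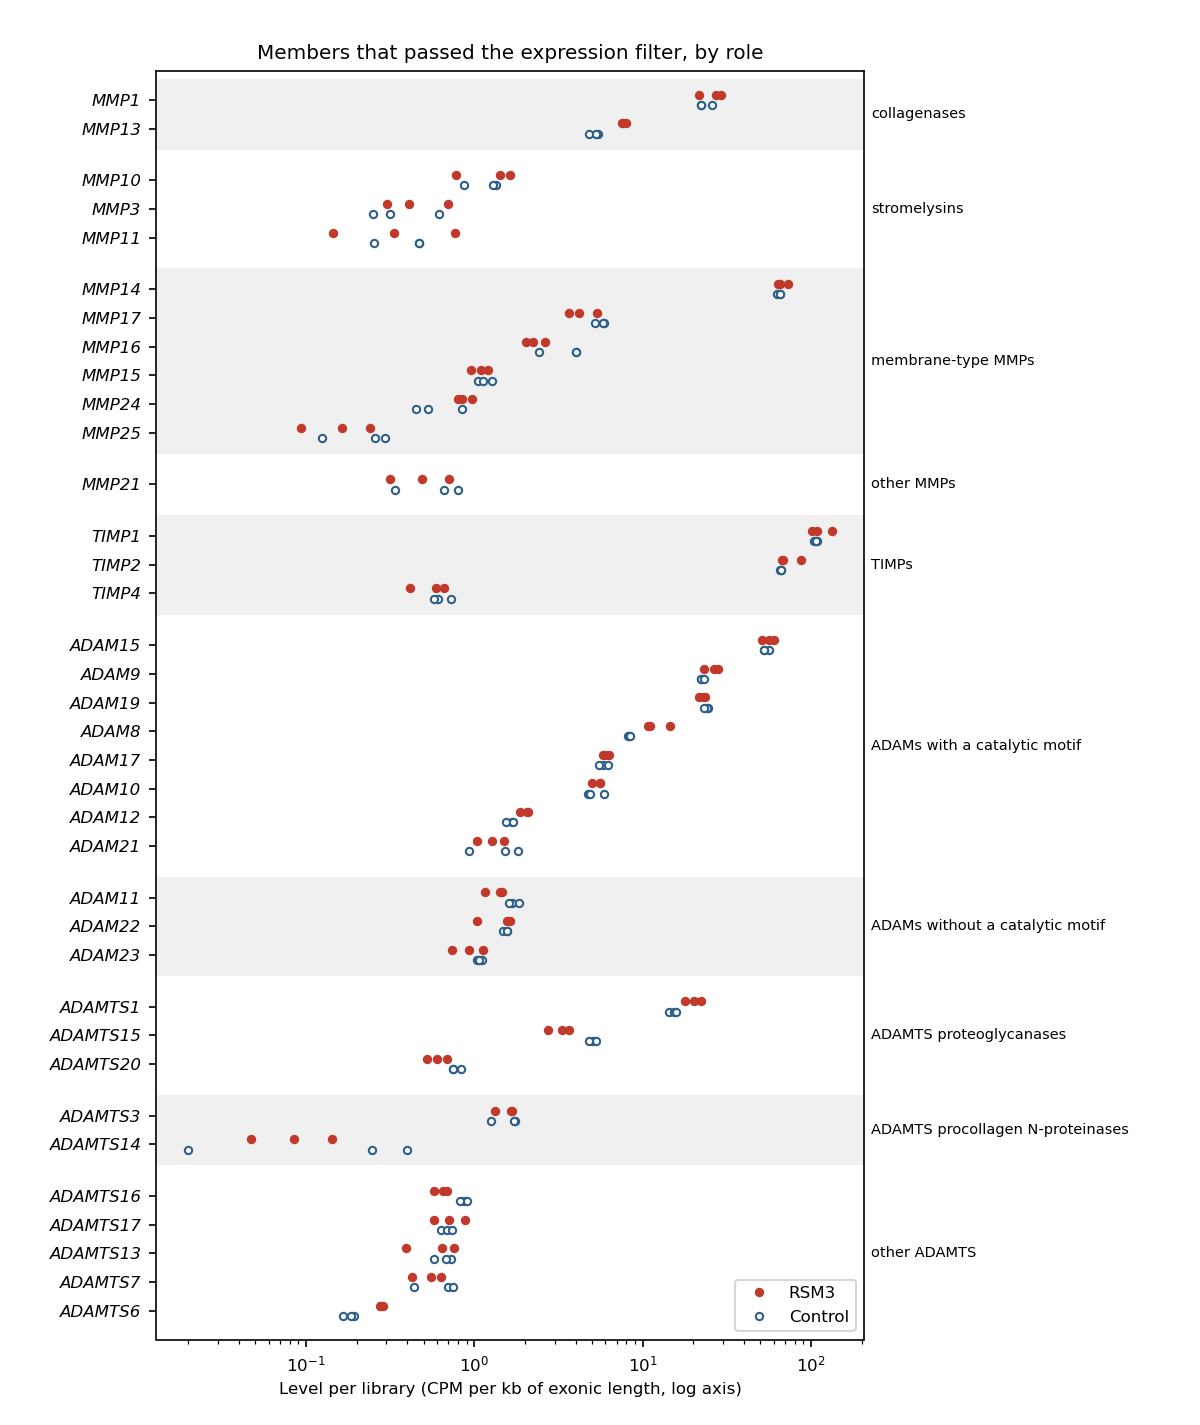
Level of the 36 tested genes in each library, in CPM per kb of exonic length on a log axis. Filled points are the 3 RSM3 libraries and open points the 3 Control libraries, with genes grouped by role. TIMP1, TIMP2, MMP14 and ADAM15 lie above 50 CPM per kb, and the RSM3 points lie fully above Control for 7 genes, such as MMP13, ADAM8 and ADAMTS1, and fully below for 4, such as ADAMTS15.

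The 10 genes without a count were MMP8, MMP20, MMP26, MMP27, ADAM2, ADAM7, ADAM18, ADAM29, ADAM30 and ADAMTS19. A count of 0 allows a level of up to 0.226 CPM in the shallowest library (3 counts of its scaled total; counting error only). They include neutrophil collagenase (MMP8), enamelysin of developing teeth (MMP20), and ADAM2, ADAM18, ADAM29 and ADAM30, which are known from testis. The gelatinases, known for cutting the collagen IV of basement membranes, were close to this limit: MMP2 had 2 counts in Control replicate 2 and none elsewhere, and MMP9 had 2, 6 and 2 counts in RSM3 replicates 1 to 3 and 2, 5 and 2 in Control replicates 1 to 3. MMP9 shares 18.4% of its exonic length with the opposite-strand SLC12A5-AS1 (77 counts in all, against 19 of MMP9), so its few counts are uncertain. MMP7, the matrilysin of glandular epithelium, had 2, 3 and 4 counts in RSM3 and 3, 2 and 1 in Control. Differences in these genes were not detectable at this depth.

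RSM3 was compared with Control by edgeR's quasi-likelihood test over all 15773 tested genes, with Benjamini-Hochberg adjustment. Of the 36 tested family members, MMP13, ADAM8 and ADAMTS1 rose and ADAMTS15 fell (adjusted p under 0.05), and 32 did not pass. Over all tested genes 4.20% passed (662 genes), 3.09% higher and 1.10% lower in RSM3. These 662 calls became 223, 214 and 403 without Control replicates 1, 2 and 3. Without RSM3 replicates 1, 2 and 3 they became 2393, 341 and 291. Calls of single genes lost or gained in those fits, given below, are to be read beside these totals. Without scaling factors the split over all genes was 308 higher and 254 lower in place of 488 and 174, and the all-gene median log2 fold change was -0.062 in place of -0.005; the same 4 family members passed. At an unadjusted p under 0.05 there were 10 of the 36, with 6 higher and 4 lower, against 17.8% of all tested genes. The RSM3 libraries all lay above the Control libraries for 7 of the 36 and all below for 4, beside 12.8% and 11.1% of all tested genes. The median log2 fold change of the 36 was 0.008, with 18 above 0 and 18 below (13 and 23 without scaling factors), and no called member changed by 2-fold. Fitting a term for Control replicates 1 and 2 left no family member called; that fit sets RSM3 against the single library Control replicate 3, taken to vary as much as the rest, and called 118 genes of all.

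**Figure D2:**
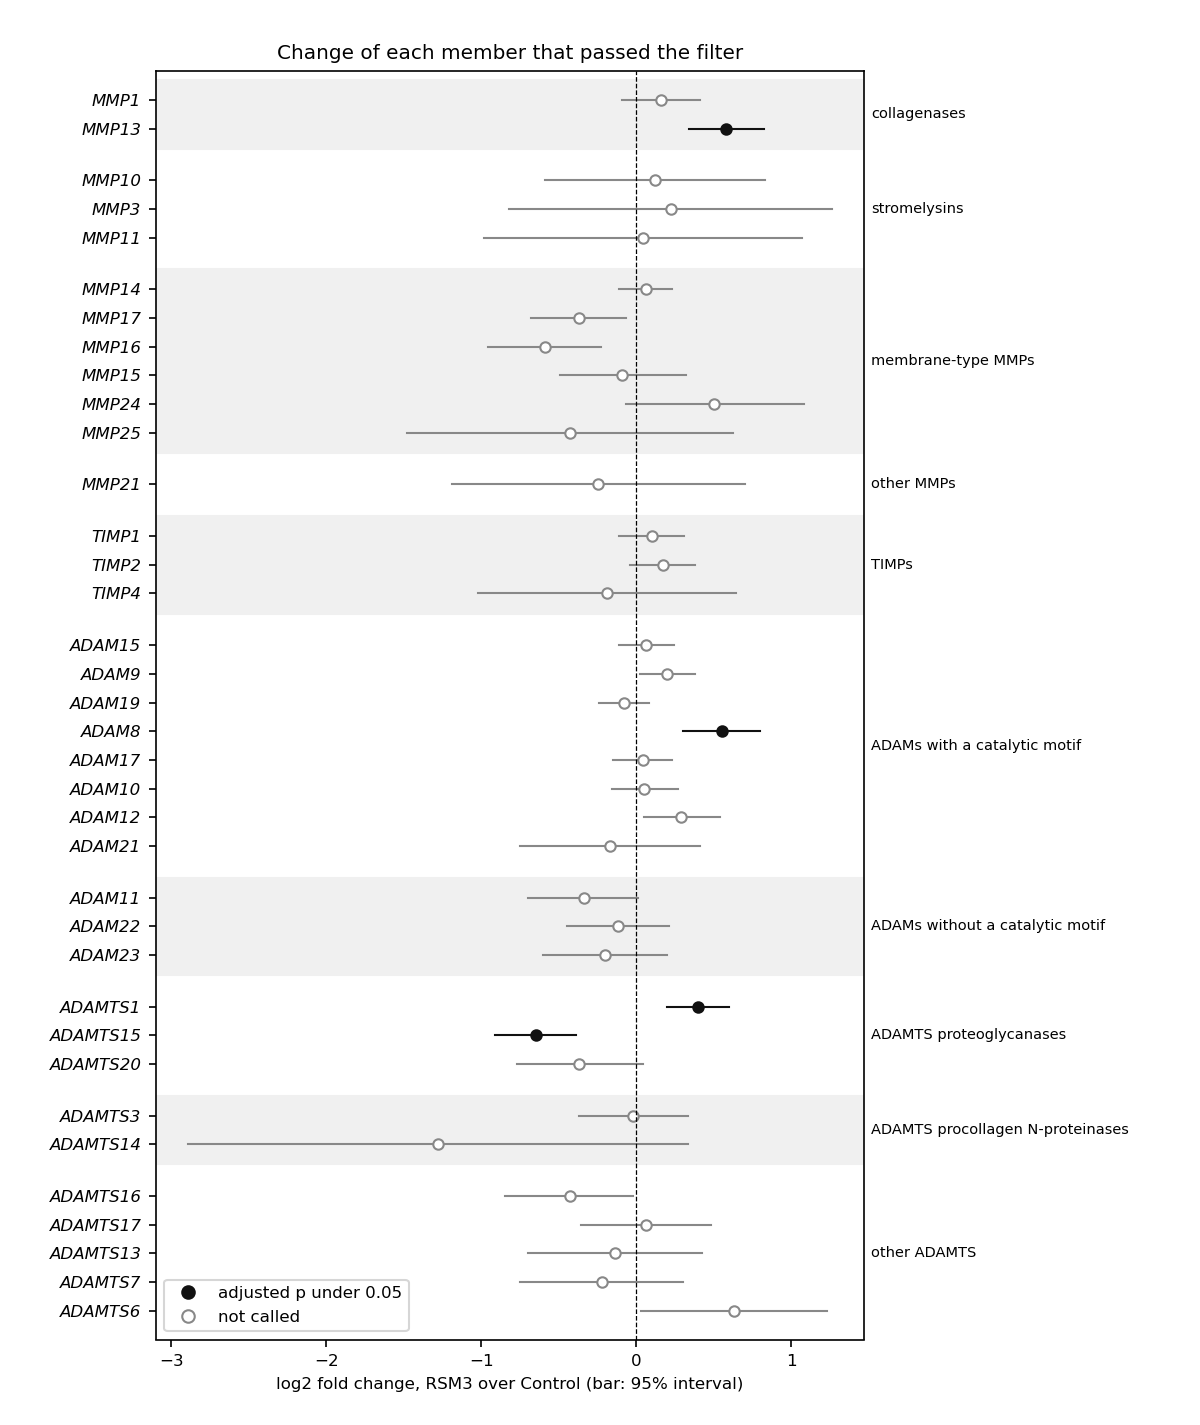
log2 fold change of RSM3 over Control for the 36 tested genes, with 95% intervals from the edgeR fit, grouped by role. Filled points mark adjusted p under 0.05: MMP13 (0.58), ADAM8 (0.55) and ADAMTS1 (0.40) to the right of 0 and ADAMTS15 (-0.65) to the left. The widest intervals belong to genes with few counts such as ADAMTS14.

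Collagenases make the first cut in fibrillar collagen. MMP13 (collagenase 3, which prefers collagen II and is known from cartilage and bone; chromosome 11, 102942995 to 102955734, minus strand, GRCh38) had 21.5, 22.6 and 21.7 CPM in RSM3 replicates 1 to 3 and 15.4, 13.7 and 15.0 CPM in Control replicates 1 to 3. All RSM3 libraries were higher than all Control libraries, and each group was tight. The log2 fold change was 0.58 ± 0.11 (SE; edgeR adjusted p = 0.0114), a 1.49-fold rise. The size held at 0.53 to 0.61 when any library was left out, but the call was lost without RSM3 replicate 2, Control replicate 1 or Control replicate 2 (adjusted p = 0.0508, 0.0522 and 0.0904; range over all 17 alternatives 0.000604 to 0.222). MMP1, interstitial collagenase and the more abundant of the pair, had 42.8, 53.8 and 57.2 CPM in RSM3 and 50.6, 43.8 and 43.7 CPM in Control. RSM3 replicate 1 was the lowest of all 6 libraries for MMP1, and the groups overlapped (log2 fold change 0.16, 95% interval -0.09 to 0.41, adjusted p = 0.536). Without that library the log2 fold change of MMP1 was 0.27 and passed (adjusted p = 0.0257; range over 17 alternatives 0.0257 to 0.845), and without RSM3 replicate 3 it was 0.07 (adjusted p = 0.845). An opposite-strand pseudogene, WTAPP1, shares 7.61% of the exonic length of MMP1 and had 22 counts in all.

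MMP1 and MMP13 lie in a row of 9 MMP genes on chromosome 11 (102520508 to 102955734, 435 kb), all on the minus strand, which starts 142 kb beyond the inhibitor-of-apoptosis gene BIRC2. In order along the chromosome these are MMP7, MMP20, MMP27, MMP8, MMP10, MMP1, MMP3, MMP12 and MMP13. Of the 9, 4 passed the expression filter, and MMP20, MMP27 and MMP8 had no count. MMP1 (26.0 ± 3.84 CPM per kb in RSM3, 23.4 ± 2.02 in Control) and MMP13 (7.73 ± 0.213 and 5.18 ± 0.312) far exceeded the stromelysins of the row, which cut a broad range of matrix proteins. MMP10 stood at 1.28 ± 0.443 CPM per kb in RSM3 and 1.17 ± 0.257 in Control, and MMP3 at 0.471 ± 0.204 and 0.395 ± 0.196. MMP10 did not pass (log2 fold change 0.12, 95% interval -0.59 to 0.83, adjusted p = 0.899), nor did MMP3 (0.22, -0.82 to 1.26, adjusted p = 0.870). These intervals are wide enough to hold the size seen in MMP13. MMP12, macrophage elastase, had 4 counts in all.

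The upstream sequence of MMP10 is shown because this gene of the cluster carries, within 250 bases of its start, matches to the sites long described for inducible MMP promoters. It is the RefSeq promoter (GRCh38.p14, chr11:102780629-102780878, minus strand), read 5′ to 3′ up to the base before the annotated start. Capitals mark a TGANTCA match (the letters of the AP-1 site) beginning 67 bases upstream and a TATAAA match beginning 31 bases upstream.
MMP10: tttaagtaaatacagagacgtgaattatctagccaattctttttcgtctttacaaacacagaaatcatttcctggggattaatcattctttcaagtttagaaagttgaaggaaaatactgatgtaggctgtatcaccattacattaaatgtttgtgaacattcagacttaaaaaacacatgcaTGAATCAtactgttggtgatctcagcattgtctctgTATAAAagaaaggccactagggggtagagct
Matches were searched on both strands in those 250 bases for all genes in the table. TGANTCA occurred in 6.57% of 35116 promoters and in 4 of the 38 family members with an entry, namely MMP7, MMP10, MMP20 and ADAMTS12. Of these 4, MMP10 alone passed the expression filter. MMP1, MMP3, MMP12 and MMP13 of the same row had no entry and were not searched, so whether they carry such matches is not known here. TATAAA occurred in 10.7% of all promoters and in 7 of the 38, and MMP7 and MMP20 carried it as well as TGANTCA. A match is a description of letters and not evidence of binding.

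The membrane-type MMPs are anchored at the cell surface, and MMP14 (MT1-MMP) is the best known of them for invasion. MMP14 had 326, 293 and 284 CPM in RSM3 replicates 1 to 3 and 281, 293 and 292 CPM in Control. The groups overlapped almost fully, with a log2 fold change of 0.06 (95% interval -0.11 to 0.23, edgeR adjusted p = 0.757), and it was 0 to 2 decimals without scaling factors or without RSM3 replicate 1. MMP16 (MT3-MMP) had 24.7, 32.1 and 27.1 CPM in RSM3 and 48.8, 29.6 and 48.4 CPM in Control. Control replicate 2 lay among the RSM3 libraries while the other Control libraries were well above them, and MMP16 did not pass (log2 fold change -0.59 ± 0.17 SE, adjusted p = 0.0719). Leaving out Control replicate 2 gave -0.79 and adjusted p = 0.0127, and DESeq2 called MMP16 with all libraries (adjusted p = 0.0137; range over 17 alternatives 3.12e-05 to 0.417). MMP17 (MT4-MMP, tied to the membrane by a lipid anchor) had 21.4, 14.5 and 16.8 CPM in RSM3 and 23.7, 23.4 and 20.9 CPM in Control. Its RSM3 replicate 1 value lay among those of Control, and the gene did not pass (log2 fold change -0.37 ± 0.14 SE, adjusted p = 0.179). Without RSM3 replicate 1 its log2 fold change was -0.53 (adjusted p = 0.00217; range over 17 alternatives 0.00217 to 0.718).

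The other membrane-type genes were low. MMP15 had 4.82 ± 0.546 CPM in RSM3 and 5.11 ± 0.493 CPM in Control and did not pass (adjusted p = 0.869). MMP24 and MMP25 share 18.1% and 35.2% of their exonic length with opposite-strand genes, MMP24OS (1993 counts in all, against 318 of MMP24) and MMP25-AS1 (285 counts, against 81 of MMP25). The strand setting of the counting is not given in the sources used here, so the values of both are uncertain. Neither passed (log2 fold change 0.50 and -0.43, adjusted p = 0.358 and 0.717). MMP11 (stromelysin 3, which is activated inside the cell by furin) and MMP21, known from left-right patterning of the embryo, had 2.16 ± 1.66 and 0.964 ± 0.376 CPM in RSM3 and 2.06 ± 0.646 and 1.15 ± 0.455 CPM in Control (adjusted p = 0.978 and 0.834). The count of MMP11 is uncertain too, since CHCHD10 on the opposite strand (316 counts in all, against 201 of MMP11) shares 4.21% of its exonic length.

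**Figure D3:**
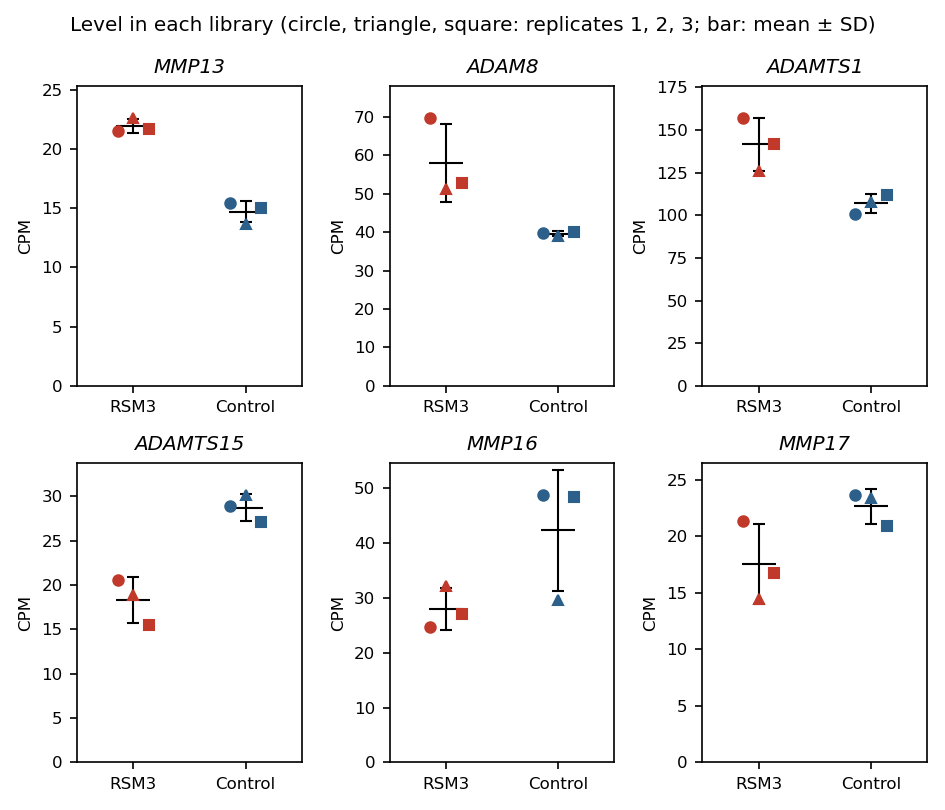
Level in CPM (from 0) in each library of MMP13, ADAM8, ADAMTS1 and ADAMTS15, which passed the threshold, and of MMP16 and MMP17, which did not. Symbols are replicates and bars the mean ± SD of 3 libraries. MMP13 lies at 21.5 to 22.6 CPM in RSM3 and 13.7 to 15.4 CPM in Control, whereas Control replicate 2 (29.6 CPM) brings the MMP16 groups to overlap.

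None of the 3 TIMPs tested passed. TIMP1 had 205, 167 and 157 CPM in RSM3 replicates 1 to 3 and 160, 167 and 166 CPM in Control (log2 fold change 0.10, 95% interval -0.11 to 0.31, adjusted p = 0.651). TIMP2 had 492, 382 and 385 CPM in RSM3 and 374, 368 and 374 CPM in Control (0.17, -0.04 to 0.38, adjusted p = 0.392). For both, RSM3 replicate 1 was the highest library and the other RSM3 libraries lay close to Control, though the TIMP2 groups did not overlap. Without that library the log2 fold change was -0.02 for TIMP1 and 0.04 for TIMP2. The summed TIMP level was accordingly 221 CPM per kb in RSM3 replicate 1, 177 and 171 in RSM3 replicates 2 and 3, and 171 to 175 in Control, beside 111 to 116 and 106 to 109 for the summed MMPs. TIMP4, of which SYN2 on the opposite strand shares 10.3% of the exonic length, was low, at 0.920 ± 0.211 CPM in RSM3 and 1.05 ± 0.130 CPM in Control (adjusted p = 0.853). TIMP3, the TIMP that binds matrix and inhibits ADAM17, was left out by the filter: it had 2, 3 and 4 counts in RSM3 and 19, 26 and 2 in Control. Control replicates 1 and 2 thus held most of its counts, as they did for the leukocyte marker PTPRC (3, 0 and 0 counts in RSM3, 18, 30 and 3 in Control). ADAMTS14, which trims procollagen, followed the same libraries with 10, 4 and 7 counts in RSM3 and 22, 37 and 2 in Control and did not pass (log2 fold change -1.28 ± 0.74 SE, adjusted p = 0.418). Among the alternatives, TIMP3 was called (lower) only without Control replicate 3. What sets those Control libraries apart, and its part in these values, was not tested. TIMP3 and ADAMTS14 were named after their values were seen.

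ADAM8 rose among the ADAMs. ADAM8 (chromosome 10, 133262403 to 133276868, minus strand, GRCh38) encodes a sheddase first described in mouse macrophages and found raised in several carcinomas. It had 69.7, 51.3 and 52.9 CPM in RSM3 replicates 1 to 3 and 39.9, 38.9 and 40.0 CPM in Control. All RSM3 libraries were higher than Control, RSM3 replicate 1 by the widest margin, and Control varied little. The log2 fold change was 0.55 ± 0.12 (SE; edgeR adjusted p = 0.0178), a 1.46-fold rise. Without RSM3 replicate 1 it was 0.40 with adjusted p = 0.000784, and without Control replicates 1, 2 or 3 the call was lost at 0.54 to 0.56 (adjusted p = 0.0912, 0.108 and 0.0656; range over 17 alternatives 2.95e-05 to 0.259). The transcript's GC content is 63.8%, and with the correction for GC content and length ADAM8 was called as well (0.57, adjusted p = 0.000119). None of the 4 called genes shares exonic bases with another annotated gene.

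Of the called genes, ADAM8 had an entry in the RefSeq promoter table (GRCh38.p14, chr10:133276869-133277118, minus strand), and its 250 upstream bases are shown because it is the sheddase that rose. MMP13, ADAMTS1 and ADAMTS15 are named only. Capitals mark GGGCGG or its complement CCGCCC, the letters of an Sp1 site.
ADAM8: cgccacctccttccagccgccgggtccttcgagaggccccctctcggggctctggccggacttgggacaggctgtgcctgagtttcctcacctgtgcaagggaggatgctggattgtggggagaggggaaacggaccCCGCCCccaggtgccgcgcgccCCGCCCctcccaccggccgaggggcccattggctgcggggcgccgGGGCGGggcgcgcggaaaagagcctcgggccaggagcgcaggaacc
The 3 capital stretches begin 113, 91 and 46 bases upstream of the start, and 73.6% of the bases are G or C. GGGCGG occurred in 42.6% of all promoters and in 25 of the 38 family members with an entry. No match to TGANTCA or to the NF-kB consensus was found in this window, and that consensus occurred in 5.21% of all promoters. Nor was there one to the ETS letters AGGAAG, found in 28.7% of all promoters and in 9 of the 38. The window of ADAM8 is GC rich without TATAAA, unlike that of MMP10, of which 34.4% is G or C.

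**Figure D4:**
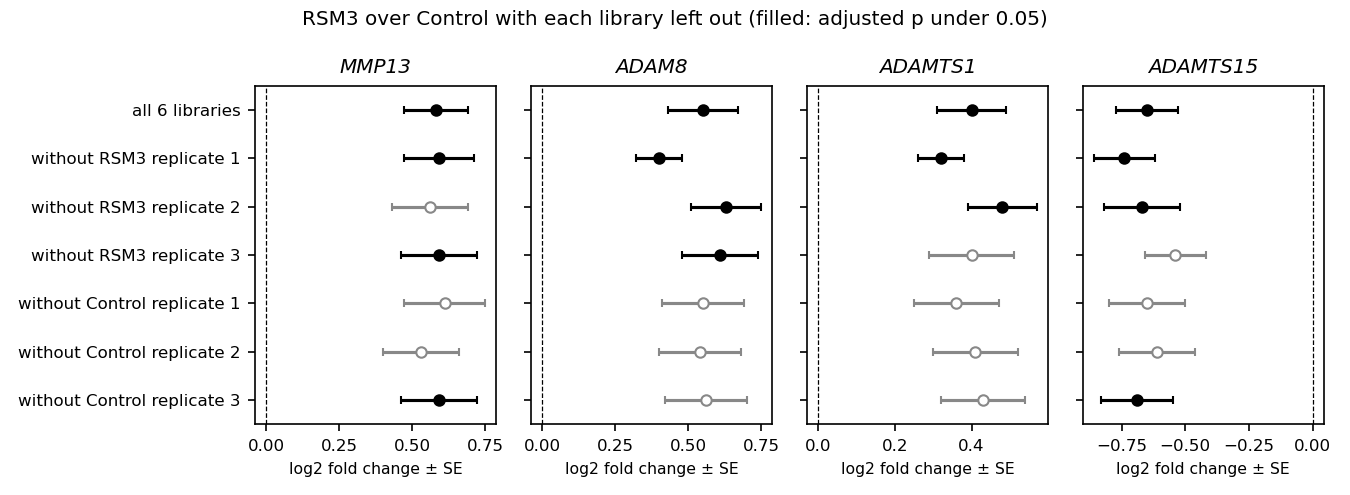
log2 fold change ± SE of RSM3 over Control for the 4 called genes with all 6 libraries and with each library left out in turn; filled points have adjusted p under 0.05. All values keep their sign. MMP13, ADAM8 and ADAMTS15 were called in 3 of the 6 reduced fits and ADAMTS1 in 2.

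No other sheddase passed. ADAM10 and ADAM17, the general sheddases of Notch receptors, of EGF receptor ligands and of tumour necrosis factor, had 81.4, 90.2 and 89.7 CPM (ADAM10) and 64.5, 62.4 and 67.7 CPM (ADAM17) in RSM3. In Control they had 76.9, 78.8 and 95.9 CPM (ADAM10) and 62.7, 59.3 and 67.4 CPM (ADAM17). Both sets of groups overlapped, with log2 fold changes of 0.05 (95% interval -0.16 to 0.27) and 0.04 (-0.15 to 0.23) and adjusted p = 0.834 and 0.873. ADAM17 shares 12.3% of its exonic length with IAH1 on the opposite strand, which leaves its count less certain. ADAM9, a widely expressed sheddase that binds integrins, had 161, 184 and 194 CPM in RSM3 and 154, 154 and 160 CPM in Control. The RSM3 libraries lay just above Control, and the gene did not pass (log2 fold change 0.20 ± 0.08 SE, adjusted p = 0.218). It passed without RSM3 replicate 1 (0.28, adjusted p = 0.000652) and with the GC and length correction (0.22, adjusted p = 0.0151; range over 17 alternatives 0.000652 to 0.715).

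ADAM12, which sheds heparin-binding EGF in mouse heart and is raised in several tumours, had 18.4, 20.4 and 20.5 CPM in RSM3 and 16.5, 15.2 and 16.8 CPM in Control. Its groups did not overlap, but it did not pass (log2 fold change 0.29 ± 0.11 SE, adjusted p = 0.194) and was not called in any of 17 alternatives (adjusted p = 0.0514 to 0.68). ADAM15, known for roles in cell adhesion, and ADAM19, a sheddase of neuregulin, had 370 ± 30.4 and 175 ± 7.47 CPM in RSM3 and 354 ± 14.1 and 185 ± 4.96 CPM in Control. Their log2 fold changes were 0.06 (95% interval -0.11 to 0.24) and -0.08 (-0.24 to 0.08). ADAM21 (adjusted p = 0.808), which is close in sequence to its neighbour ADAM20 on chromosome 14 so that reads could be shared, was low at 3.38 ± 0.609 CPM in RSM3 and 3.77 ± 1.18 CPM in Control. The ADAMs that lack a working catalytic site and serve as neuronal ligand receptors, ADAM11, ADAM22 and ADAM23, all had estimates below 0 (-0.34, -0.12 and -0.20), and none passed. ADAM11 had 7.00, 6.80 and 5.54 CPM in RSM3 and 8.03, 8.83 and 7.65 CPM in Control, without overlap (adjusted p = 0.298).

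Among the ADAMTS proteoglycanases, which cut aggrecan and versican, the most abundant members went opposite ways. ADAMTS1 (chromosome 21, 26835747 to 26845409, minus strand, GRCh38), which also cuts thrombospondins and was first found as an inflammation-associated gene in mouse tumours, had 157, 126 and 142 CPM in RSM3 replicates 1 to 3 and 101, 108 and 112 CPM in Control. All RSM3 libraries were higher, with the gap smallest for RSM3 replicate 2 and Control replicate 3. The log2 fold change was 0.40 ± 0.09 (SE; edgeR adjusted p = 0.0267), a 1.32-fold rise. The call was kept without RSM3 replicate 1 (0.32, adjusted p = 0.000556) and without RSM3 replicate 2 (0.48, adjusted p = 0.0207). It was lost without RSM3 replicate 3 or Control replicates 1, 2 or 3 (adjusted p = 0.0978, 0.165, 0.128 and 0.068; range over 17 alternatives 0.000556 to 0.384).

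ADAMTS15 (chromosome 11, 130448974 to 130476641, plus strand, GRCh38), a versican-cleaving enzyme reported as mutated in colorectal cancer, had 20.6, 18.9 and 15.5 CPM in RSM3 and 28.9, 30.2 and 27.1 CPM in Control. Every RSM3 library was lower than every Control library. The log2 fold change was -0.65 ± 0.12 (SE; edgeR adjusted p = 0.00965), which is 0.637 of the Control level. It was -0.74 without RSM3 replicate 1 (adjusted p = 1.85e-05), and the call was lost without RSM3 replicate 3, Control replicate 1 or Control replicate 2 (adjusted p = 0.0545, 0.0585 and 0.0772; range over 17 alternatives 1.85e-05 to 0.218). ADAMTS20, known from coat pigmentation in mice, had 4.97, 4.37 and 3.80 CPM in RSM3 and 5.44, 6.04 and 5.43 CPM in Control, without overlap, and did not pass (adjusted p = 0.337). ADAMTS4, ADAMTS5, ADAMTS8 and ADAMTS9 were left out by the filter, with 10, 40, 3 and 17 counts in all.

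The remaining ADAMTS genes did not pass. ADAMTS3, a procollagen N-proteinase that also activates the lymphatic growth factor VEGF-C, had 12.0, 9.48 and 11.9 CPM in RSM3 and 12.5, 9.06 and 12.3 CPM in Control (log2 fold change -0.02, 95% interval -0.37 to 0.33). ADAMTS6, a relative of the fibrillin-associated ADAMTS10, had 2.41, 2.37 and 2.45 CPM in RSM3 and 1.42, 1.65 and 1.58 CPM in Control. The groups were tight and apart, but at 24 to 38 counts a library the gene did not pass (log2 fold change 0.63 ± 0.28 SE, adjusted p = 0.250). ADAMTS16 had 3.84, 3.37 and 4.06 CPM in RSM3 and 5.08, 5.30 and 4.85 CPM in Control, again apart and not called (-0.43 ± 0.19 SE, adjusted p = 0.251). ADAMTS7, ADAMTS13 (the protease of von Willebrand factor) and ADAMTS17 overlapped between groups, with log2 fold changes of -0.22, -0.14 and 0.06.

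Genes that act with these proteases were followed as a list of 58: convertases, ADAM partners, other inhibitors, relatives outside the naming rule and known substrates. Of 45 tested, 5 rose, 2 fell and 38 did not pass, beside 4.20% of all tested genes, and the median log2 fold change was -0.011. Neither tested convertase, which remove prodomains, passed, with FURIN at 33.9 ± 7.01 CPM in RSM3 and 34.3 ± 0.808 CPM in Control (log2 fold change -0.02, 95% interval -0.30 to 0.26). None of the 3 genes whose products carry ADAM17 to the surface passed. The most abundant per kb of them, FRMD8, which holds iRhom proteins at the membrane, had 55.4 ± 5.71 CPM in RSM3 and 53.7 ± 3.78 CPM in Control (adjusted p = 0.878). None of 5 tested tetraspanins that escort ADAM10 passed, TSPAN15 standing at 159 ± 16.7 CPM in RSM3 and 156 ± 3.64 CPM in Control (adjusted p = 0.895). Of 7 tested relatives of the families none passed; THSD4, an ADAMTS-like protein gene, had 121 ± 6.66 CPM in RSM3 and 140 ± 6.45 CPM in Control (adjusted p = 0.163).

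Shed substrates were the largest class of the partner list, which was chosen with earlier results of these data known. Of 18 tested shed substrates, 3 rose and 2 fell, beside 3.09% higher and 1.10% lower of all tested genes. HBEGF, the membrane precursor of heparin-binding EGF, had 46.9, 44.7 and 48.3 CPM in RSM3 and 33.1, 34.1 and 28.7 CPM in Control. All RSM3 libraries were higher (log2 fold change 0.55 ± 0.10 SE, edgeR adjusted p = 0.00765), and the call held in all 17 alternatives (adjusted p = 7.07e-05 to 0.0464). AREG, the precursor of amphiregulin, another ligand of the EGF receptor, had 28.7, 23.6 and 23.0 CPM in RSM3 and 41.2, 35.4 and 36.6 CPM in Control. It fell (log2 fold change -0.59 ± 0.11 SE, adjusted p = 0.0113), while TGFA, BTC, EREG and EGF did not pass (adjusted p = 0.791, 0.826, 0.958 and 0.219). EGF was low, with 1.35, 1.31 and 1.22 CPM in RSM3 and 2.19, 1.94 and 2.32 CPM in Control, without overlap (log2 fold change -0.73 ± 0.30 SE). The call of AREG was lost without RSM3 replicates 2 or 3 or Control replicate 1 (adjusted p = 0.0584, 0.071 and 0.087; range over 17 alternatives 6.13e-06 to 0.209).

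MET, the receptor of hepatocyte growth factor, had 740, 795 and 812 CPM in RSM3 and 568, 526 and 617 CPM in Control, without overlap (log2 fold change 0.46 ± 0.08 SE, edgeR adjusted p = 0.00718). The cell surface proteoglycans went opposite ways. SDC4 (syndecan 4) had 112, 127 and 126 CPM in RSM3 and 90.6, 88.5 and 101 CPM in Control (0.38 ± 0.09 SE, adjusted p = 0.0261). SDC1 (syndecan 1) had 409, 459 and 515 CPM in RSM3 and 749, 641 and 605 CPM in Control (-0.53 ± 0.10 SE, adjusted p = 0.0108). The groups did not overlap for either syndecan. SDC1 was not called with the GC and length correction (-0.49, adjusted p = 0.0788; range over 17 alternatives 2.15e-07 to 0.303), and SDC4 was not called without scaling factors (0.33, adjusted p = 0.0763; range 7.45e-06 to 0.456).

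THBS1, the matrix protein thrombospondin 1 that ADAMTS1 cleaves, had 82.0, 76.2 and 68.8 CPM in RSM3 and 54.9, 54.9 and 60.3 CPM in Control, all RSM3 libraries being higher (0.41 ± 0.09 SE, edgeR adjusted p = 0.0233). TFPI2, a Kunitz-type inhibitor of plasmin that also inhibits some MMPs, had 183, 184 and 196 CPM in RSM3 and 146, 140 and 145 CPM in Control, again without overlap (0.38 ± 0.07 SE, adjusted p = 0.0107). Without Control replicate 1 or Control replicate 2 neither was called (adjusted p = 0.139 and 0.143 for THBS1, 0.0713 and 0.0961 for TFPI2). The same held for MET (0.0593 and 0.0781), SDC1 (0.0851 and 0.0567) and SDC4 (0.154 and 0.165). THBS1 was also lost without RSM3 replicate 2 (adjusted p = 0.0763), TFPI2 without RSM3 replicate 3 (0.0686) and SDC4 without either (0.1 and 0.112). Over 17 alternatives the adjusted p ran from 0.000941 to 0.391 for THBS1, from 3.65e-06 to 0.232 for TFPI2 and from 2.8e-07 to 0.271 for MET. RECK, a membrane-anchored inhibitor of MMP14, had 9.69 ± 2.17 CPM in RSM3 and 10.5 ± 0.655 CPM in Control and did not pass (-0.11, 95% interval -0.47 to 0.25). Of the matrix substrates the fibronectin gene FN1 was the most abundant per kb, with 2680 ± 433 CPM in RSM3 and 2900 ± 104 CPM in Control (adjusted p = 0.631).

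**Figure D5:**
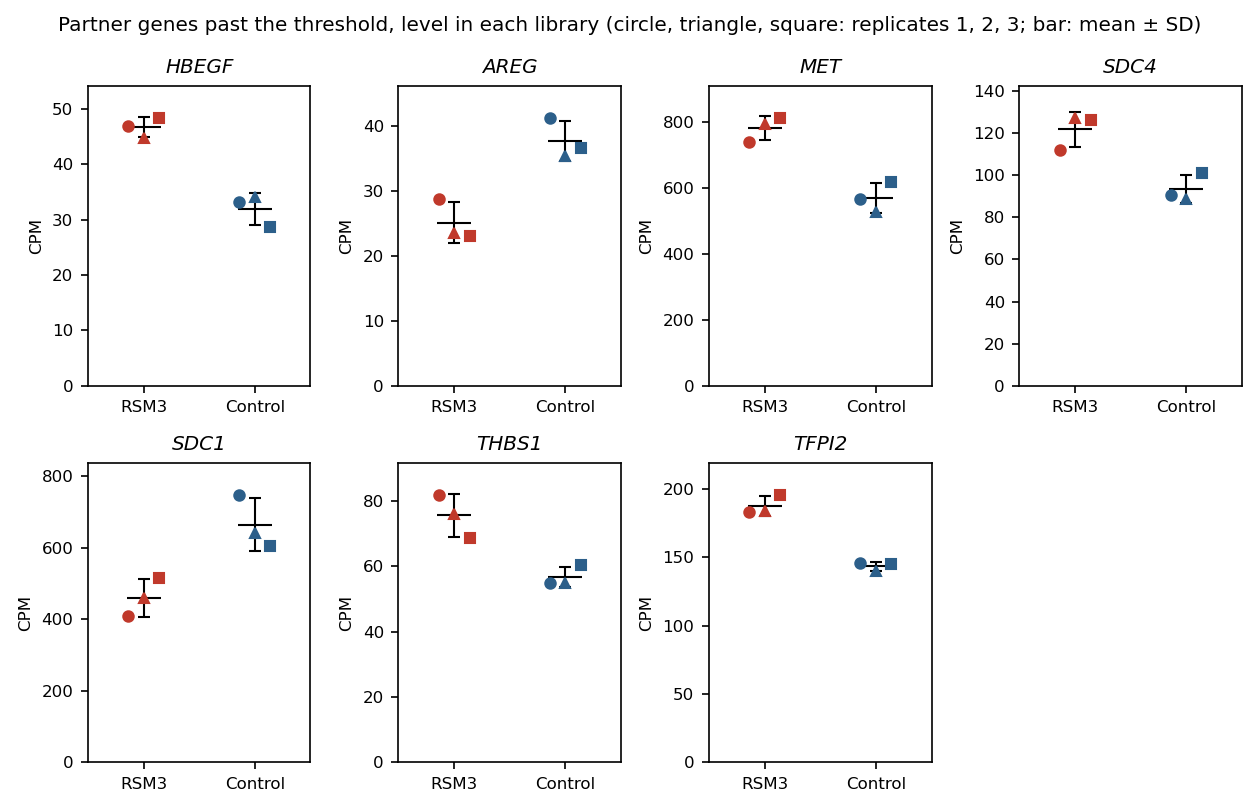
Level in CPM (from 0) in each library of the 7 partner genes past the threshold; symbols are replicates and bars the mean ± SD of 3 libraries. HBEGF, MET, SDC4, THBS1 and TFPI2 are higher in each RSM3 library than in each Control library, and AREG and SDC1 lower in each.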

How the data were processed

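Per gene and sample, the authors deposited raw read counts, whole numbers without normalisation judging by their values. Tools listed in the submitters' processing notes, with no role or order, are featureCounts, fastp, DESeq2 and STAR (2.7.1a), with the build hg38, and the labels' protocols describe poly(A) selection and dUTP strand marking. For the counting, neither the annotation release, the strand setting nor the rule for reads with several hits is stated in any source used here. Columns carried the sample titles, which gave groups and replicate numbers.

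Library pairs within a group differed by more than sampling noise (chi-square per degree of freedom 3.33 to 20.0). The test was run over the whole table, with filterByExpr (minimum count 10), TMM factors and edgeR (4.0.16, R 4.3.3) quasi-likelihood testing with robust dispersions, no covariate and Benjamini-Hochberg adjustment at 0.05. CPM values are TMM-normalised, and exonic lengths, GC content and coordinates came from GENCODE 29 on GRCh38. SE was derived from the F statistic, and 95% intervals use the fit's degrees of freedom. The GC and length correction entered loess curves (span 0.5, degree 2) as offsets. Alternatives used DESeq2 (1.42.0), limma voom (3.58.1), other scalings and filters, a replicate block, a term for Control replicates 1 and 2, and each library left out. The scripts were tested on simulated data with known changes.

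The members, role groups, partner genes and alternatives were chosen with earlier results of these data known. Values are given for all called members, the 5 next by p, the 10 most abundant per kb and the highest of each role group, and for partner genes past the threshold or highest in their list. Any other gene named with values was picked with its values in view. With counts of 0, limits of 3 counts cover counting error only. RSM3 replicate numbers were not taken to pair with those of Control, and the labels do not say whether they do.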

Additional observations from a re-analysis of the deposited data

How the results depend on the processing

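Of the values of named genes under 17 alternatives, 391 kept their direction and side of the threshold, 43 lost a call, 12 gained 1 and 12 changed sign. The sign changes were all in uncalled genes. With 1 library left out the log2 fold change ran from 0 to 0.1 for MMP14, from -0.02 to 0.18 for TIMP1, from -0.16 to 0.08 for ADAMTS3, from -0.56 to 0.01 for MMP21 and from -0.08 to 0.38 for MMP10. MMP14 was also at 0 without scaling factors, ADAMTS3 at 0.01 after GC and length correction with or without the block, and MMP10 at -0.02 with a term shared by Control replicates 1 and 2. The 3 family members that rose became 0 with that term, and 0 to 5 when 1 library was left out (0 without Control replicate 1 or 2, 5 without RSM3 replicate 1). The 1 that fell became 2 with no filter on low counts, 2 with DESeq2, 3 once GC and length were corrected (3 also with the replicate block added) and 0 with the term, and 0 to 2 with 1 library left out. The 5 partner genes that rose became 1 with the term and 1 to 6 with 1 library left out. The 2 partner genes that fell became 1 after correction for GC and length, with or without the block, 0 with the term, and 0 to 7 with 1 library left out (7 without RSM3 replicate 1). These counts do not always follow the same genes: without Control replicate 2 the 1 family member called lower was MMP16, and ADAMTS15 was not called. The cause of these changes in counts was not tested.

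The replicate block called the same 4 family members (3 higher and 1 lower), the same 5 and 2 partner genes, and 653 genes in place of 662. Deviations of same-numbered libraries correlated at 0.03, -0.025 and 0.044 across genes, and not every library correlated best with its own number, so the numbers were not taken to pair samples. Over all genes the 662 calls became 1083 with no filter, 1629 after correction for GC and length (1454 with the block), 118 with the term, and 214 to 2393 with 1 library left out (2393 without RSM3 replicate 1). The 95% intervals of 12 tested family members spanned more than 2-fold in all: MMP3, MMP10, MMP11, MMP21, MMP24, MMP25, TIMP4, ADAM21, ADAMTS6, ADAMTS7, ADAMTS13 and ADAMTS14. These had 81 to 442 counts in all, and depth was not separated from disagreement between libraries.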
